A study of Homo sapiens with 8 samples.

Results

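The genes described here encode 10 components of transforming growth factor beta (TGF-beta) signalling, and they were followed across 2 breast epithelial cell lines and 2 lentiviral vectors. They were taken by symbol from the expression table, which held 13771 genes. The set was made up of the ligand genes TGFB1, TGFB2 and INHBA, the receptor genes TGFBR1, TGFBR2 and TGFBR3, the signal mediator SMAD3, and the feedback genes SMAD7, SKIL and BAMBI. All 10 listed genes were in the table. RNA-seq had been performed on 8 libraries in 4 groups of 2, namely MCF10A pCDH-empty, MCF10A pCDH-HOTAIR, DCIS.COM pCDH-empty and DCIS.COM pCDH-HOTAIR. MCF10A is an immortalised, non-tumorigenic human breast epithelial line, while DCIS.COM descends from HRAS-transformed MCF10A cells and forms lesions resembling ductal carcinoma in situ. In each line, stably transduced cells under puromycin selection carried either the HOTAIR long non-coding RNA or the empty pCDH vector as control. The MCF10A medium contained horse serum, epidermal growth factor, hydrocortisone, insulin and cholera toxin, whereas horse serum was the only one of these supplements named for DCIS.COM. Cell line and medium therefore cannot be told apart in these data. The labels give no sign that the libraries of a group came from separate transductions or cultures, so p-values measure the spread between these libraries, which may be technical.

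TGF-beta ligands are secreted as latent complexes. Once released, a dimer is bound by the type II receptor TGFBR2, often presented by the co-receptor TGFBR3 (betaglycan), and TGFBR2 then phosphorylates the type I receptor TGFBR1. The activated type I receptor phosphorylates SMAD2 and SMAD3, which enter the nucleus with SMAD4 and switch on target genes, among them SMAD7 and SKIL, whose products dampen the pathway. In breast epithelium the pathway restrains growth in normal cells, and in carcinoma it is better known for promoting matrix production and epithelial to mesenchymal transition.

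The deposited values are log2 CPM (reads of a gene scaled to a common library size), and they could be converted back to whole reads. Libraries held between 19306864 and 34884841 reads, and the 10 genes were covered by between 79 and 14461 reads per library. The transgene was visible in every pCDH-HOTAIR library, with 4614 and 4827 HOTAIR reads in MCF10A against 45 and 40 under the empty vector, and 7166 and 6385 in DCIS.COM against 119 and 140. One library stood apart. The first DCIS.COM pCDH-empty library gave 18.9% of its reads to the small cytoplasmic RNA genes RN7SL1 and RN7SL2 (11.1% to 15.0% in the others), and the median gene differed by 0.212 on the log2 scale between the libraries of that group, against 0.0646 to 0.0845 in the other groups. Its value was the lowest or highest of the 4 DCIS.COM libraries for 5 of the 10 genes. Any 1 of 4 libraries would have that share on average, so this count does not set the library apart. The part of this library in the results below is given by leaving it out. The breast basal markers KRT5, KRT6A, KRT14, KRT17, TP63, LAMA3, LAMB3, CDH3 and EGFR were in the table, with a summed level of 17510.3 to 19941 CPM in MCF10A and 1995 to 2433 CPM in DCIS.COM. Of the fibroblast, endothelial and leukocyte marker lists, 1 of 7, 1 of 5 and 2 of 6 genes were in the table (FAP, PECAM1, and CD14 with CD68).

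The first comparison asked how the pathway's components differed between DCIS.COM and MCF10A, separately under each vector. With the empty vector, 7 of the 10 genes were called different and 5 of these 7 were lower in DCIS.COM: TGFB1, INHBA, TGFBR1, TGFBR2 and SKIL. TGFB2 and SMAD3 were the 2 called higher. A call required a Benjamini-Hochberg adjusted p under 0.05 over all genes in limma and a fold change of at least 1.5. By this rule 46.3% of all genes tested were called in this comparison, and 43.7% with pCDH-HOTAIR, where 5 of the 10 genes were called and all 5 were lower in DCIS.COM (TGFB1, INHBA, TGFBR2, SMAD7 and SKIL). The members' median log2 fold change was -0.60 with either vector, whereas the median over all genes was -0.00012 with pCDH-empty and 0.0035 with pCDH-HOTAIR. Without the first DCIS.COM pCDH-empty library the members' median with pCDH-empty was -0.37, with 4 called lower and 2 higher. In bulk RNA a smaller number of expressing cells and less RNA per cell cannot be told apart.

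Among the ligands, TGFB1 and TGFB2 moved in opposite directions between the lines. TGFB1, the main TGF-beta isoform of epithelium and stroma (Entrez gene 7040, chr19:41807492-41859827 on GRCh37), measured 3.96 and 4.08 log2 CPM in MCF10A with the empty vector, against 1.65 and 1.59 in DCIS.COM. With pCDH-HOTAIR it measured 4.37 and 4.30 log2 CPM in MCF10A and 1.60 and 1.94 in DCIS.COM. The highest DCIS.COM library therefore lay about 2 log2 units below the lowest MCF10A library, and the fitted difference was -2.40 ± 0.14 (SE) with the empty vector, a 5.27-fold lower level (adjusted p = 1.56e-06). With pCDH-HOTAIR the difference was -2.57 (adjusted p = 1.09e-06), or 5.93-fold. Reads at this locus carry some uncertainty, since CCDC97, HNRNPUL1 and TMEM91 overlap its span on the opposite strand and the use of strand in the counting was not given in the sources used here.

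TGFB2, the isoform that needs the co-receptor TGFBR3 for strong binding to TGFBR2 (Entrez gene 7042, chr1:218518678-218617961), measured 3.87 and 4.18 log2 CPM in MCF10A pCDH-empty and 4.56 and 4.82 in DCIS.COM pCDH-empty. Both DCIS.COM libraries were above both MCF10A libraries, and the difference of 0.67 ± 0.14 (1.59-fold higher, adjusted p = 0.00299) was called. With pCDH-HOTAIR the values were 4.23 and 4.28 log2 CPM in MCF10A against 4.54 and 4.77 in DCIS.COM. There the groups again did not overlap, but the difference of 0.41 (adjusted p = 0.0316) was under the 1.5-fold threshold. The call with the empty vector was lost without the first MCF10A pCDH-empty library (0.51) or without the second DCIS.COM pCDH-empty library (0.54). INHBA, which encodes the subunit of activin A and signals through the same SMADs (Entrez gene 3624, chr7:41706766-41745432), measured 3.63 and 3.56 log2 CPM in MCF10A pCDH-empty and 2.11 and 1.94 in DCIS.COM pCDH-empty. It was 2.96-fold lower in DCIS.COM (log2 difference -1.57 ± 0.12, adjusted p = 1.12e-05), and 2.37-fold lower with pCDH-HOTAIR (adjusted p = 4.61e-05).

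The ligand balance is seen within each library, where the ratio of the 2 isoforms does not depend on the library's scaling. Per kilobase of annotated exon, the TGFB2 to TGFB1 ratio was between 0.487 and 0.578 in the 4 MCF10A libraries and between 3.92 and 5.16 in the 4 DCIS.COM libraries. Per kilobase, TGFB1 was thus the more abundant transcript in every MCF10A library and TGFB2 in every DCIS.COM library. Without scaling by length the ratio was 0.902 to 1.072 in MCF10A, with TGFB2 above TGFB1 in the second pCDH-empty library, and 7.26 to 9.57 in DCIS.COM, so that the order in MCF10A depended on the annotated lengths while the gap between the lines did not. The ratio of TGFBR2 to TGFBR1 was between 15.2 and 17.2 in MCF10A and between 4.32 and 7.69 in DCIS.COM, with the highest DCIS.COM value in the first pCDH-empty library.

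TGFBR2, the receptor that binds the ligand first (Entrez gene 7048, chr3:30648093-30735634), was the most abundant of the 10 transcripts per kilobase in every group and was lower in DCIS.COM. It measured 8.86 and 8.91 log2 CPM in MCF10A pCDH-empty, 8.89 and 8.95 in MCF10A pCDH-HOTAIR, 6.88 and 6.82 in DCIS.COM pCDH-empty, and 6.69 and 6.72 in DCIS.COM pCDH-HOTAIR. No library of one line came near those of the other, and the libraries of each group lay close together. The difference was -2.03 ± 0.06 with the empty vector (4.08-fold lower, 95% interval 3.71 to 4.50, adjusted p = 5.70e-08) and -2.22 with pCDH-HOTAIR (4.67-fold lower, adjusted p = 4.47e-08). It rested on at least 3031 reads per library.

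TGFBR1, the type I receptor kinase (Entrez gene 7046, chr9:101866320-101916474), measured 5.09 and 5.21 log2 CPM in MCF10A pCDH-empty against 4.17 and 4.79 in DCIS.COM pCDH-empty. The 2 DCIS.COM libraries differed by more than the second of them did from MCF10A, and the low one is the library with the high RN7SL share. The difference of -0.67 ± 0.18 was called (adjusted p = 0.00954), but without that library it was -0.35 and the call was lost, as it was without the second MCF10A pCDH-empty library (-0.61) and with GC correction (-0.43). With pCDH-HOTAIR the values were 5.13 and 5.08 log2 CPM against 4.80 and 4.83, a difference of -0.29 (95% interval -0.70 to 0.12, adjusted p = 0.178). TGFBR3, which encodes betaglycan (Entrez gene 7049, chr1:92145900-92371892), measured 3.41 and 3.32 log2 CPM in MCF10A pCDH-empty and 2.93 and 3.35 in DCIS.COM pCDH-empty. These groups overlapped, and neither the difference of -0.23 (interval -0.65 to 0.19, adjusted p = 0.294) nor that of -0.099 with pCDH-HOTAIR (adjusted p = 0.652) passed the test.

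SMAD3, the receptor-activated mediator (Entrez gene 4088, chr15:67356101-67487511), differed in the opposite direction to TGFBR2. It measured 6.11 and 6.16 log2 CPM in MCF10A pCDH-empty and 6.97 and 6.74 in DCIS.COM pCDH-empty, and 6.27 and 6.21 against 6.75 and 6.74 with pCDH-HOTAIR. All 4 DCIS.COM libraries were above all 4 MCF10A libraries. The difference was 0.72 ± 0.08 with the empty vector (1.65-fold higher, adjusted p = 0.000108) and 0.51 with pCDH-HOTAIR (adjusted p = 0.000875), where the fold change of 1.42 fell short of the call.

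The 3 feedback genes did not share a pattern. SKIL, a nuclear co-repressor of SMAD complexes (Entrez gene 6498, chr3:170075130-170114623), measured 5.87 and 6.05 log2 CPM in MCF10A pCDH-empty and 4.63 and 5.10 in DCIS.COM pCDH-empty, and was 2.14-fold lower in DCIS.COM (-1.10 ± 0.15, adjusted p = 0.000258). With pCDH-HOTAIR it measured 5.91 and 6.07 log2 CPM against 5.09 and 5.09, a 1.87-fold lower level (adjusted p = 0.00083). SMAD7, the inhibitory SMAD that blocks the type I receptor (Entrez gene 4092, chr18:46446223-46477335), measured 3.29 and 3.43 log2 CPM in MCF10A pCDH-empty and 2.68 and 2.97 in DCIS.COM pCDH-empty. Its difference of -0.53 ± 0.13 had an adjusted p of 0.00588 and a fold of 1.45, just under the call, and it was called without the first MCF10A (-0.60) or the second DCIS.COM pCDH-empty library (-0.68). With pCDH-HOTAIR, SMAD7 measured 3.67 and 3.61 log2 CPM in MCF10A and 2.51 and 2.59 in DCIS.COM, and the difference of -1.09 (2.13-fold lower, adjusted p = 0.000113) was called.

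BAMBI, a pseudoreceptor that lacks the kinase domain and competes with type I receptors (Entrez gene 25805, chr10:28966439-28971861), was the most level of the genes. Its 8 values ran from 4.74 to 4.99 log2 CPM. The line difference was -0.056 with pCDH-empty (95% interval -0.23 to 0.12, adjusted p = 0.533) and -0.15 with pCDH-HOTAIR (interval -0.32 to 0.027, adjusted p = 0.12). BAMBI values of the 2 lines did not overlap under either vector. Over the 10 genes the lines did not overlap for 9 with either vector, 2 higher and 7 lower in DCIS.COM, whereas 81.6% of all genes did not overlap with pCDH-empty and 89.2% with pCDH-HOTAIR.

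**Figure D1:**
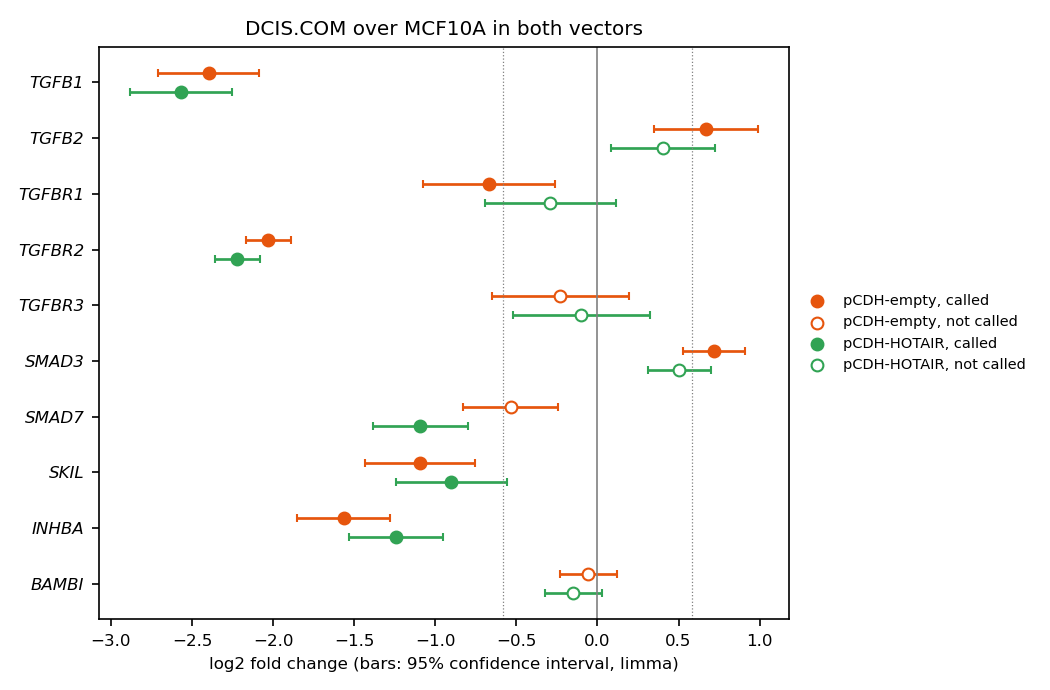
Log2 fold change of DCIS.COM over MCF10A (x axis) for the 10 genes, with pCDH-empty and pCDH-HOTAIR side by side. Bars are 95% confidence intervals from limma, filled points were called and dotted lines mark the 1.5-fold threshold. TGFB1 and TGFBR2 lie near -2.40 and -2.03 with pCDH-empty, and BAMBI and TGFBR3 lie near 0.

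Ranked per kilobase of exon, the order of the transcripts differed between the lines. In MCF10A pCDH-empty the level of TGFBR2 was 68.9 CPM per kilobase, followed by BAMBI at 13.8, SKIL at 7.67, SMAD3 at 7.02, TGFB1 at 4.95, TGFBR1 at 4.44, TGFB2 at 2.69, SMAD7 at 2.59, INHBA at 1.45 and TGFBR3 at 1.2. In that order only the neighbours TGFB2 and SMAD7 overlapped between their libraries. In DCIS.COM pCDH-empty TGFBR2 at 16.9 CPM per kilobase was still first, but BAMBI at 13.3 and SMAD3 at 11.6 were close behind. TGFB2 at 4.27, SKIL at 3.62, TGFBR1 at 2.85, SMAD7 at 1.79, TGFBR3 at 1.03, TGFB1 at 0.92 and INHBA at 0.484 followed. There SKIL overlapped both TGFB2 and TGFBR1, and TGFBR3 overlapped TGFB1. TGFB1 thus stood at rank 5 in MCF10A and rank 9 in DCIS.COM. With pCDH-HOTAIR the first 2 places and those of TGFB1 were the same, with TGFBR2 at 70.9 CPM per kilobase in MCF10A and 15.2 in DCIS.COM. Without scaling by length, SMAD3 had the higher mean CPM in both DCIS.COM groups, but in pCDH-empty it overlapped TGFBR2, which was above SMAD3 in the second library (113 against 107 CPM).

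Stretches of promoter around a SMAD box are shown for the first listed start of TGFB2 and of each feedback gene, and around the AP1 motif for TGFBR2, since SMAD7 and SKIL are textbook genes that SMADs induce. The SMAD box CAGAC (or its reverse complement GTCTG) is the core element read by SMAD3 and SMAD4, and AP1 sites are known to lie near many SMAD-bound elements. All 10 genes matched a RefSeq promoter, with 24 windows of 300 bases (250 before and 50 after an annotated start) on GRCh38.p14, some of which overlap. Of these windows, 13 held the SMAD box, against 45.3% of all 35116 windows, and 2 held the AP1 motif TGANTCA, against 7.71%. The motif GGCGCC was in 4 windows (19.2% of all) and the palindrome GTCTAGAC in 0 (0.202% of all). Both strands were searched, and GTCTAGAC holds neither CAGAC nor GTCTG. The 30-base stretches are written in the gene's direction with the SMAD box or AP1 match in capitals, and a match describes the letters only. Matches in the other windows of these genes and matches to GGCGCC are not shown or marked, and 2 of the latter lie in lower case in the first BAMBI stretch, 1 on each side of the box.
TGFB2, 243 bases before the start, chr1:218345086-218345115, plus strand: ccttcaaCAGACctgtccaaaatgactgga
TGFB2, 53 bases before the start, chr1:218345271-218345300, plus strand: ctttgttgaaggCAGACacgtggttcagag
TGFBR2, AP1 motif, 6 bases before the start, chr3:30606584-30606613, plus strand: ttgaagttgagTGAGTCActcgcgcgcacg
SMAD7, 217 bases before the start, chr18:48951165-48951194, minus strand: gccggacgccccCAGACctctgaggttcga
SMAD7, 128 bases before the start, chr18:48951076-48951105, minus strand: ttcttattttgcCAGACgtctcatgcgggg
SKIL, 107 bases before the start, chr3:170357596-170357625, plus strand: gacggcggcggcGTCTGcgggaagctgtgt
BAMBI, 189 bases before the start, chr10:28677320-28677349, plus strand: agccgggcgcccCAGACgccggcgccgctc
BAMBI, 140 bases before the start, chr10:28677369-28677398, plus strand: cccagcgctcgcGTCTGggcccgccccccg

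The rest of the pathway was described by 8 lists of genes. The table held only genes above 0.5 CPM in at least 2 libraries. Of the genes named below, FBN2, CHRDL1, FST, SOSTDC1, BMP6, BMP8B, RGMA and LDLRAD4 were below that level in every MCF10A library. They were in the table only through DCIS.COM, so their higher calls were close to fixed by this filter. COL1A2 was below it in every DCIS.COM library, with the opposite effect on its call. Of the direct targets of TGF-beta signalling, 23 in the table are reported. With pCDH-empty 17 of these 23 were called lower in DCIS.COM and 2 were called higher, with a median log2 fold change of -1.18, while 23.8% of all genes were called lower and 22.5% higher. With pCDH-HOTAIR 18 were called lower and 2 higher, with a median of -1.40. The list includes SMAD7, SKIL and 3 genes that other lists hold, and among the 18 targets in no other list 13 were called lower and 2 higher with either vector. Without the first DCIS.COM pCDH-empty library the 23 targets still gave 17 lower and 2 higher. The basal markers, given above by their summed level, were lower too, with 8 of 9 called lower and a median of -2.56, and their part in the result was not tested.

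TGFBI, a secreted matrix protein named for its induction by TGF-beta, had a mean of 1053 CPM in MCF10A pCDH-empty and 14.6 CPM in DCIS.COM pCDH-empty, a 71.8-fold lower level (log2 difference -6.17 ± 0.10, adjusted p = 6.02e-09). FN1, fibronectin, was 37.2-fold lower (2029.7 against 52.5 CPM, adjusted p = 2.52e-07), and COL1A2, a chain of type I collagen, had 47 to 58 reads per library in MCF10A and 0 to 1 in DCIS.COM (adjusted p = 6.36e-06). The 2 targets called higher were CCN2, a matricellular growth factor that is also a YAP target, at 3.56 CPM in MCF10A against 15.3 in DCIS.COM (4.20-fold, adjusted p = 3.19e-05), and PDGFB, a platelet-derived growth factor subunit, at 3.02 against 6.26 CPM (2.03-fold, adjusted p = 0.000567). TGFBI, FN1 and COL1A2, the lowest called targets, were lower in the same cell line as TGFB1 and TGFBR2. The targets CCN2 and PDGFB were higher there, as was SMAD3.

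The proteins that store and release latent TGF-beta were split, with 7 of 14 called lower and 5 called higher in DCIS.COM with pCDH-empty (median -0.50). Of all genes, 23.8% were called lower and 22.5% higher. FBN1, the fibrillin that anchors latent complexes, was 97.1-fold lower (225 CPM in MCF10A against 2.16, adjusted p = 3.48e-07), and the latent TGF-beta binding proteins LTBP2 and LTBP1 were 8.62-fold and 7.38-fold lower (adjusted p = 8.53e-07 and 8.13e-07). In contrast, FBN2 had 0 to 1 reads per library in MCF10A pCDH-empty and 1359 to 1405 in DCIS.COM pCDH-empty. THBS1, thrombospondin 1, which activates latent TGF-beta, was 19.0-fold higher (173 against 3254 CPM, adjusted p = 9.21e-07), and LTBP3 was 2.09-fold higher (adjusted p = 5.52e-05). The fibrillin transcripts thus had opposite differences, but that of FBN2 was nearly fixed by the filter given above.

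Of 14 listed secreted antagonists, 7 were in the table. CHRDL1, FST and SOSTDC1 were among these only through DCIS.COM, so the filter given above nearly fixed their higher calls. All 7 antagonists were called with pCDH-empty, 4 higher and 3 lower in DCIS.COM, beside 46.3% of all genes called. The median of 0.90 rests in part on the 3 genes nearly fixed by the filter, so its sign is not read as a result. Among the 7, the follistatin-type inhibitors of activin were FSTL3 and FST, and the filter nearly fixed the sign of FST. FSTL3 was 190-fold lower in DCIS.COM (243 against 1.21 CPM, adjusted p = 2.63e-09), whereas FST had 3 to 5 reads per library in MCF10A and 150 to 190 in DCIS.COM. CHRDL1, a BMP antagonist, had 0 reads in both MCF10A pCDH-empty libraries and 48 to 56 in DCIS.COM, and was at least 17.6-fold higher when MCF10A is set at a floor of 3 reads per library. SOSTDC1, another BMP antagonist, had 0 to 3 reads in MCF10A and 328 to 331 in DCIS.COM. The extracellular BMP modulator TWSG1 was 4.06-fold lower (adjusted p = 5.57e-05) and NBL1 1.62-fold lower (adjusted p = 3.01e-05). The median of this list was the same with CHRDL1 at its bound, but it still includes the genes that were in the table only through DCIS.COM.

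Among 10 other ligands of the family, 5 were called higher and 1 lower in DCIS.COM with pCDH-empty (median 0.67, and 0.50 with 4 called higher without the first DCIS.COM pCDH-empty library). With pCDH-HOTAIR 4 were called higher and 3 lower (median -0.0020), and these counts were not stable with 1 library left out. Of all genes, 22.5% were called higher and 23.8% lower with pCDH-empty, and 22% and 21.7% with pCDH-HOTAIR. BMP2 was 10.2-fold lower (47.6 against 4.59 CPM, adjusted p = 5.23e-08), and BMP1, a procollagen protease that stood in the same list but is not a ligand and is left out of these counts, was 13.3-fold lower (adjusted p = 2.87e-08). BMP7 was 15.2-fold higher (0.82 against 13.5 CPM, adjusted p = 3.43e-07). BMP6 and BMP8B rested on 3 to 4 reads per library in MCF10A pCDH-empty, against 43 to 68 and 174 to 221 in DCIS.COM. Of the 4 ID genes, which BMP signalling induces, ID1 was 2.07-fold lower (361 against 174 CPM, adjusted p = 1.99e-05) and ID4 was 12.1-fold higher (0.72 against 9.12 CPM, adjusted p = 7.70e-05), with a list median of -0.38 that ran from -0.60 to -0.16 with 1 library left out.

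Of 10 other receptors 3 were called higher and 1 lower with pCDH-empty (median -0.15). In this comparison 46.3% of all genes were called, and the receptors, SMADs and feedback genes of this paragraph each stayed below that share. RGMA, a BMP co-receptor, was 69.2-fold higher from 6 to 10 reads per library in MCF10A (adjusted p = 1.74e-07), the activin receptors ACVR2B and ACVR1B were 1.80-fold and 1.67-fold higher (adjusted p = 0.00136 and 0.000297), and the BMP type II receptor BMPR2 was 1.85-fold lower (adjusted p = 0.00148). Of 6 other SMADs, the inhibitory SMAD6 was called higher (1.80-fold, adjusted p = 0.000755) and the shared partner SMAD4 lower (1.53-fold, adjusted p = 0.000536), with a median of -0.13. Without the first DCIS.COM pCDH-empty library SMAD4 was no longer called (-0.48) and the median of the SMADs was 0.079 (-0.34 without the second), and the SMAD4 call was also lost without the second MCF10A pCDH-empty library (-0.57) and under 3 other scalings. Of 11 other feedback genes and co-repressors 3 were called higher and 2 lower (median 0.17). PMEPA1, a TGF-beta-induced inhibitor of SMAD2 and SMAD3 phosphorylation, was 7.68-fold lower (273 against 35.4 CPM, adjusted p = 5.02e-07) and the co-repressor TGIF1 2.12-fold lower (adjusted p = 2.65e-06). LDLRAD4, which has the same action as PMEPA1, was 17.5-fold higher from 7 reads per MCF10A library (adjusted p = 4.60e-07), SKI, the paralogue of SKIL, was 2.70-fold higher (adjusted p = 8.38e-06), and the ubiquitin ligase NEDD4L was 1.53-fold higher (adjusted p = 8.49e-05), a call lost without the first DCIS.COM pCDH-empty library (0.54) and with GC correction (0.57).

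The second comparison asked which of these genes differed between HOTAIR and empty-vector MCF10A cells. None of the 10 was called, with limma-voom on recovered reads also 0, the log2 fold changes ran from -0.13 (INHBA) to 0.32 (TGFB1), and the adjusted p values in limma ran from 0.676 to 0.998. Of all genes tested 0.0218% were called, which is 3 genes. TGFB1 was the 1 member with an unadjusted p under 0.05, as were 7.28% of all genes. Both pCDH-HOTAIR libraries (4.37 and 4.30 log2 CPM) were above both pCDH-empty libraries (3.96 and 4.08), and the difference of 0.32 ± 0.14 (95% interval 0.0030 to 0.63) had an adjusted p of 0.676. SMAD7 followed at 0.28 (adjusted p = 0.706) and TGFB2 at 0.23 (adjusted p = 0.824). TGFB1, TGFB2, SMAD3, SMAD7 and BAMBI were the 5 genes whose groups did not overlap, all with higher values in pCDH-HOTAIR, and 47.2% of all genes did not overlap. The widest interval of a member was that of TGFBR3, -0.39 to 0.45 on the log2 scale, and the narrowest that of TGFBR2, -0.098 to 0.18.

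Of 81 other pathway genes, 0 were called for HOTAIR in MCF10A in limma or limma-voom, and 16 had an unadjusted p under 0.05. Over all genes 7.28% had such a p. The direct targets had 20 of 23 values above 0, a median log2 fold change of 0.27 against -0.0055 over all genes, and 9 of 23 with an unadjusted p under 0.05. That median was 0.15 without the first MCF10A pCDH-empty library and 0.18 without the second MCF10A pCDH-HOTAIR library. The type I collagen genes COL1A2 (0.93, adjusted p = 0.557, 47 to 58 reads against 67 to 72) and COL1A1 (0.90, adjusted p = 0.36, 7.5 against 14.1 CPM) had the highest values, and FST (-0.34, adjusted p = 0.928) and LDLRAD4 (-0.34, adjusted p = 0.8) the lowest, both on at most 7 reads per library. TGFBI was at 0.46 (adjusted p = 0.302) and FN1 at 0.48 (adjusted p = 0.705). The FN1 value rested on the first pCDH-empty library, which measured 10.54 log2 CPM against 11.33, 11.38 and 11.44 in the other 3, and it was 0.083 without that library.

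In DCIS.COM none of the 10 genes was called for HOTAIR either, in limma or limma-voom, while 0.0871% of all genes (12 genes) were. Their log2 fold changes ran from -0.27 (SMAD7) to 0.33 (TGFBR1), and the adjusted p values in limma from 0.273 to 0.917. TGFBR2 was the 1 member with an unadjusted p under 0.05, as were 17.5% of all genes. Its pCDH-HOTAIR values of 6.69 and 6.72 log2 CPM were below the pCDH-empty values of 6.88 and 6.82, and the difference of -0.15 ± 0.06 (95% interval -0.29 to -0.012) had an adjusted p of 0.273. SMAD7 measured 2.51 and 2.59 log2 CPM with HOTAIR against 2.68 and 2.97 (-0.27, adjusted p = 0.3). TGFBR1 and INHBA did not overlap in the other direction, and 49.2% of all genes did not overlap.

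The TGFBR1 value in DCIS.COM rested on 1 library. The pCDH-HOTAIR libraries measured 4.80 and 4.83 log2 CPM and the second pCDH-empty library 4.79, while the first pCDH-empty library measured 4.17. Without that first library the HOTAIR effect on TGFBR1 was 0.018, and without the second it was 0.65 and was called. In that last fit 1403 of all 13771 genes were called, and the lone pCDH-empty library was assumed to vary like the other groups. The SKIL value rested on the same library, with 4.63 log2 CPM in the first pCDH-empty library and 5.09 to 5.10 in the other 3, so that its value of 0.23 (adjusted p = 0.408) was -0.0098 without that library. Of the 81 other pathway genes 0 were again called in limma or limma-voom, and 15 had an unadjusted p under 0.05. Over all genes 17.5% had such a p. SOSTDC1 (0.56, adjusted p = 0.535) and TGFBI (0.46, adjusted p = 0.171) had the highest values and BMP4 (-0.72, adjusted p = 0.222) and THBS1 (-0.65, adjusted p = 0.246) the lowest, and the direct targets had a median of 0.036 that ran from 0.0075 to 0.065 with 1 library left out. BMP4 (-0.82) and THBS1 (-0.86) were called without the second DCIS.COM pCDH-empty library, in the same fit with 1403 genes called.

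The last comparison was the difference between the lines in the HOTAIR effect, tested as an interaction without a fold threshold. None of the 10 genes was called in limma or limma-voom, with adjusted p values in limma from 0.422 to 0.823, and 0.0436% of all genes (6 genes) were. SMAD7 was the 1 member with an unadjusted p under 0.05, as were 1452 of all 13771 genes. Its values with HOTAIR were above those of the empty vector in MCF10A and below them in DCIS.COM, and the difference of the effects was -0.56 ± 0.18 (95% interval -0.97 to -0.14, adjusted p = 0.422). TGFBR1 had a difference of 0.38 (interval -0.20 to 0.95), which was 0.064 without the first DCIS.COM pCDH-empty library and 0.69 without the second, and INHBA had 0.32. Without the second DCIS.COM pCDH-empty library 4 members (TGFBR1, TGFBR2, SMAD3 and SKIL) and 4414 of all genes were called, with the remaining library of that group assumed to vary like the other groups.

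Genes with the most similar pattern were named for the member with the largest HOTAIR effect in each line, by Pearson's r over the 8 libraries after subtraction of each line's mean. For TGFB1 these were DAPK3 (r = 0.966) and ZNF133 (r = 0.965). For TGFBR1 they were OSGEPL1 (r = 0.998) and GAR1 (r = 0.996). The libraries share their line's mean and the low TGFBR1 value is a single library, so these values are descriptions over few points.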

How the data were processed

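Total RNA of MCF10A and DCIS.COM cells was sequenced as 8 paired-end ScriptSeq libraries. Per the study's methods and the labels, the authors aligned reads to hg19 with Rsubread, counted them on UCSC known genes with featureCounts, added org.Hs.eg.db symbols and normalised with edgeR. The deposited values are log2 CPM of 13771 genes, each above 0.5 CPM in at least 2 libraries (343 have no symbol). Whole reads were recovered from the deposited steps (100% of values within 0.05 of a whole read). Recovered totals ran from 19306864 to 34884841 reads, so that genes with few reads carry the largest counting error in MCF10A pCDH-HOTAIR. The confidence intervals from limma reflect the spread between libraries, and floors on reads cover counting error only.

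Tests were fitted to the log2 CPM of all genes with limma 3.58.1 in R 4.3.3 (4 group means, mean-variance trend), with p-values adjusted by Benjamini-Hochberg over 13771 genes. A call needed an adjusted p under 0.05 and, except for the interaction, a 1.5-fold change. The fit was tested on simulated data with the same spread in every group. The DCIS.COM pCDH-empty libraries spread more than the others, which that simulation does not cover. Fold changes are on the log2 scale as deposited, with a prior of 0.0717 CPM, and understate changes of low genes. Exon lengths and positions came from GENCODE release 44 on GRCh37 (94.5% of genes) and promoters from RefSeq on GRCh38.p14. Tables and figures used Python 3.11.15. The 10 members and all lists were chosen with earlier results of these data known, and 2 listed genes are not reported here. The text names all members, the 3 highest and 3 lowest called genes of each list between the lines with pCDH-empty, and the 2 highest and 2 lowest HOTAIR effects in each line. TGFBI and FN1 in the MCF10A HOTAIR comparison were named after their values were seen. Alternatives were pseudocounts of 0.1 and 1, a mean CPM of at least 2, median centring, quantile normalisation, GC correction, no trend, a replicate block, separate fits, limma-voom on recovered reads, other call thresholds and each library left out. List counts with each library left out, the ligand list without BMP1, leave-outs for TGFBI and FN1 and ratios without length were added after seeing the data.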

Additional observations from a re-analysis of the deposited data

Results flagged for a closer look

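SMAD7, the inhibitory SMAD, was the 1 member whose HOTAIR effect took opposite signs in the 2 lines in every library. In MCF10A both pCDH-HOTAIR libraries (3.67 and 3.61 log2 CPM) were above both pCDH-empty libraries (3.29 and 3.43), and in DCIS.COM both (2.51 and 2.59) were below both pCDH-empty libraries (2.68 and 2.97). The effect in DCIS.COM minus that in MCF10A was -0.56 on the log2 scale. The test of this difference in limma gave an unadjusted p of 0.0148 and an adjusted p of 0.422, and neither line's effect was called. Of all 13771 genes, 1452 had an unadjusted p under 0.05 in this test, so 1 of 10 members is not above that share. The vector groups did not overlap for 47.2% of all genes in MCF10A and 49.2% in DCIS.COM. How many genes did so in opposite directions was not counted, so the pattern does not set SMAD7 apart.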

How the results depend on the processing

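Of the 10 members, 7 were called between the lines with pCDH-empty, 6 to 7 with 1 library left out and 3 with a log2 threshold of 1.5. With pCDH-HOTAIR 5 were called, 5 in every fit with 1 library left out and 2 with that threshold. For HOTAIR, 0 members were called in MCF10A in every setting, 0 to 1 in DCIS.COM with 1 library left out, and 0 to 4 for the interaction. Over all genes, 6370 and 6018 were called between the lines with pCDH-empty and pCDH-HOTAIR, and 2418 and 2357 with the log2 threshold of 1.5. For HOTAIR in MCF10A 3 genes were called, 1 to 51 with 1 library left out, 6 with a pseudocount of 1, 10 with GC correction, 5 with limma-voom, and 1 each with a separate fit and the log2 threshold. In DCIS.COM 12 were called, 1 to 1403 with 1 library left out, 50 with GC correction, 6 with no trend, 0 with a separate fit and 1 with the log2 threshold. For the interaction 6 were called, 0 to 4414 with 1 library left out, 10 with a pseudocount of 1, 26 with GC correction and 0 with no trend. The causes were not tested. The highest counts came without a DCIS.COM pCDH-empty library, whose lone partner is then assumed to vary like the other groups.

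Same-numbered libraries did not deviate together (correlation 0.066 in MCF10A and -0.0089 in DCIS.COM), and the numbers were not treated as pairs. With the replicate number as a block, 1 gene was called for HOTAIR in MCF10A, 5 in DCIS.COM and 0 for the interaction, and the members' counts were again 7, 5, 0, 0 and 0.

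The direction turned for the following values. With GC correction, the HOTAIR value in DCIS.COM was -0.025 for SKIL and 0.0019 for BAMBI, and the interaction was -0.069 for SKIL. With 1 library left out, HOTAIR values in DCIS.COM ran from -0.023 to 0.32 for TGFB1, -0.16 to 0.10 for TGFB2, -0.050 to 0.37 for TGFBR3, -0.23 to 0.0058 for SMAD3, -0.0098 to 0.46 for SKIL and -0.086 to 0.024 for BAMBI. In MCF10A they ran from -0.11 to 0.013 for TGFBR1, -0.15 to 0.20 for TGFBR3, -0.061 to 0.12 for SKIL and -0.76 to 0.087 for FST. The interaction ran from -0.080 to 0.34 for TGFBR3 and -0.042 to 0.43 for SKIL, and the TGFBR3 line difference with pCDH-HOTAIR from -0.27 to 0.076. Depth limits genes of few reads, such as FST in MCF10A.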
